A study of Mus musculus with 36 samples.

Results

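The genes described here are 10 members of the bone morphogenetic protein (BMP) pathway: the receptors Bmpr1a, Bmpr1b and Bmpr2, the intracellular transducers Smad1 and Smad5, the inhibitor Smad6, and the target genes Id1, Id2, Id3 and Id4. They were chosen by symbol, as 10 of the 25460 genes to which a transcript of the tables could be assigned by its position in mm10, and the values of each gene's transcripts were summed. BMP ligands outside the cell bring together type I receptors (Bmpr1a, Bmpr1b) and type II receptors (Bmpr2), and the type I receptor then phosphorylates Smad1 and Smad5, which enter the nucleus with Smad4 and switch on target genes. The Id genes are classical targets: their proteins lack a DNA-binding domain, pair with E proteins and thereby keep basic helix-loop-helix (bHLH) factors off DNA. In the nervous system BMP signalling is known for favouring astrocytes over neurons and oligodendrocytes, and Smad6, itself induced by the pathway, dampens it.

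RNA was sequenced from sorted brain cells of C57/Bl6 mice, in 18 groups of 2 libraries each. The groups are 6 populations, labelled A, B, C, D, E and Neg, from each of 3 regions: olfactory bulb, cortex and brainstem. No treatment or allele is given for any group, and the labels call the cells astrocytes in every group. Neither the meaning of Neg nor the antigens that separated the populations is given. Whether both libraries of a group stem from different animals is not stated, and the p-values therefore reflect only library-to-library spread, which may be technical.

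Levels are in FPKM, fragments scaled to transcript length and library size, as the authors deposited them. The sum of FPKM over nuclear transcripts still differed between libraries. It was 87398 to 163132 in C, 109895 to 139691 in B, 37453 to 119524 in A and 41324 to 148661 in D. In E it was 23005 to 70447 and in Neg 24130 to 63081. Differences were taken between values of log2(FPKM + 1), a scale that makes changes of low genes look smaller than they are. Depth, read from the deposited coverage and relative to an arbitrary unit, was 0.0695 in brainstem E replicate 1 and 0.315 in olfactory bulb E replicate 1, against 1.16 to 4.08 in the other 34 libraries. Libraries with few genes at 1 FPKM or more were frequent in 2 populations: 3002 to 6779 genes in E and 2104 to 7465 in Neg, against 8706 to 9978 in C. A value of exactly 0 can be a failed estimate, since Gapdh, a gene that every cell uses, is listed at 0 in 4 libraries. Of the 14 astrocyte markers examined, the summed level was 292 to 4480 FPKM in A to E and 95.2 to 554 FPKM in Neg. B also carried the 11 microglial markers at a summed 830 to 1460 FPKM, against 4.69 to 697 FPKM in the other lettered populations and 40.3 to 211 FPKM in Neg. The libraries labelled brainstem D replicate 2 and cortex E replicate 2 carried genes of the olfactory bulb: the mean over 8 olfactory markers on the log2 scale was 6.41 in the first and 5.06 in the second, where olfactory bulb libraries had 4.01 to 6.26 and no other brainstem or cortex library passed 4.15. In bulk libraries such as these, fewer cells of a type and less RNA per cell cannot be told apart.

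All 10 genes are protein-coding. In mm10, with the GENCODE vM21 annotation, Bmpr1a lies at chr14:34410734-34503341, Bmpr1b at chr3:141837136-142169425 and Bmpr2 at chr1:59763400-59879014. Smad1 lies at chr8:79338395-79399518, Smad5 at chr13:56703010-56742377 and Smad6 at chr9:63953076-64022059. The Id genes are short, Id1 at chr2:152736251-152737410, Id2 at chr12:25093799-25097140, Id3 at chr4:136143497-136145755 and Id4 at chr13:48261228-48266026.

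**Figure D1:**
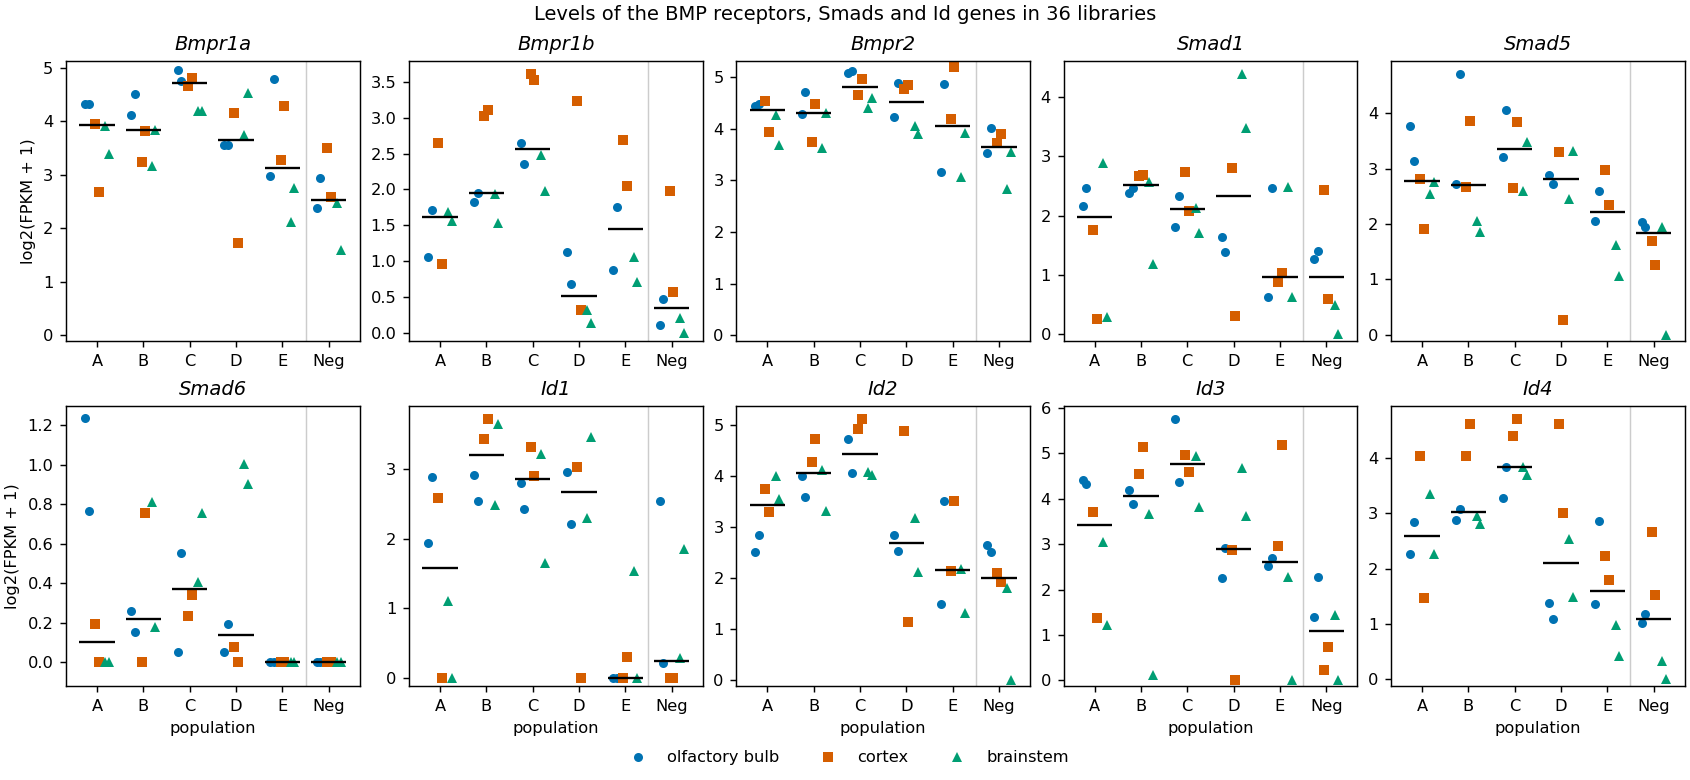
Level of each gene in the 36 libraries, as log2(FPKM + 1), by population from A to E and then Neg. Each point is a library, with its shape and colour giving the region, and black bars are medians of 6 libraries. For every gene but Id1 and Smad1 the highest median is that of C, though how often this holds over all genes was not counted. Smad6 lies at 0 in every E and Neg library.

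The first comparison set the lettered populations against Neg. The type I receptors Bmpr1a and Bmpr1b, Smad5 and all 4 Id genes were higher in A to E, by 1.17 to 2.32 on the log2 scale among the 7 genes that passed the test. These 7 of 10 members stand against 20.2% of all 13578 genes tested that were called higher (limma, adjusted p under 0.05). The median difference of the 10 members was 1.25, against 0.5 over all genes.

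Among the receptors, Bmpr1a, the broadly expressed type I receptor, was at 2.3 to 30.2 FPKM in A to E (median 14.3, n = 30), against 2.03 to 10.3 FPKM in Neg (median 4.74, n = 6). Bmpr1b, a type I receptor of more restricted expression, was at 0.097 to 11.2 FPKM in A to E (median 2.46), against 0 to 2.92 FPKM in Neg (median 0.265). The ranges overlapped for both genes, and the Neg library with the highest level of each was cortex Neg replicate 1. Bmpr1a rose by 1.24 ± 0.34 (SE, adjusted p = 0.013) and Bmpr1b by 1.26 ± 0.32 (adjusted p = 0.00808). Bmpr2, the type II receptor, was the most abundant of the 3 receptors by median, at 7.34 to 35.6 FPKM in A to E (median 20.5) and 6.15 to 15.1 FPKM in Neg (median 11.5). Its difference of 0.76 ± 0.30 missed the threshold (adjusted p = 0.0642) and turned negative once libraries were rescaled to a common sum (-0.36) or quantile normalized (-0.31).

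Smad5 was at 0.206 to 25.2 FPKM in A to E (median 5.61), against 0 to 3.13 FPKM in Neg (median 2.56). Only Smad5 among the transducers passed the test, with a difference of 1.26 ± 0.37 (adjusted p = 0.0192). Smad1 was lower in level, at 0.201 to 19.9 FPKM in A to E (median 3.42) and 0 to 4.42 FPKM in Neg (median 0.958), and differed by 0.92 ± 0.39 (adjusted p = 0.0808). Smad6 reached 1 FPKM in 2 libraries only, olfactory bulb A replicate 1 at 1.36 FPKM and brainstem D replicate 1 at 1.01 FPKM. It is listed at 0 in all 6 Neg libraries and in 11 of the 30 lettered ones, so no fold change is given for it, and its test against Neg had an adjusted p of 0.113.

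Of the Id genes, Id3 differed most. It was at 0 to 53.1 FPKM in A to E (median 11.9), against 0 to 3.86 FPKM in Neg (median 1.14), a difference of 2.32 ± 0.47 (adjusted p = 0.00163). Id4 was at 0.334 to 25.3 FPKM in A to E (median 6.3) and 0 to 5.32 FPKM in Neg (median 1.14), a difference of 1.69 ± 0.33 (adjusted p = 0.00137). Id2 was at 1.21 to 33.9 FPKM in A to E (median 10.6) and 0 to 5.26 FPKM in Neg (median 3.01), a difference of 1.56 ± 0.39 (adjusted p = 0.00726). Every one of these ranges overlapped, at the low end of A to E. Id1 was at 0 to 12.3 FPKM in A to E (median 4.51) and 0 to 4.82 FPKM in Neg (median 0.184), and rose by 1.17 ± 0.41 (adjusted p = 0.0422). Summed over the 4 genes, Id transcripts came to 1.81 to 95.1 FPKM in the lettered populations and never passed 12.7 FPKM in Neg.

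How many of the members were called against Neg depended on the scale and on single Neg libraries. As deposited, 2746 of all genes were higher and 19 lower in A to E; the split was 332 and 144 once rescaled and 396 and 549 on the quantile scale, where the median of the members was 1.21 and 0.47 and that of all genes 0.39 and 0. Bmpr1b and Id4 were called on all 3 scales, and Id3 on the deposited and the quantile scale. Without cortex Neg replicate 2, or without brainstem Neg replicate 2, fewer members were called. The number of all genes called also moved when single libraries were left out, so these losses are not read as a trait of the members. Id1 lost its call under 23 of the 46 alternatives, and Id4 under none. All 14 astrocyte markers were also higher in A to E, and the part of astrocyte content in the members' differences was not tested.

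**Figure D2:**
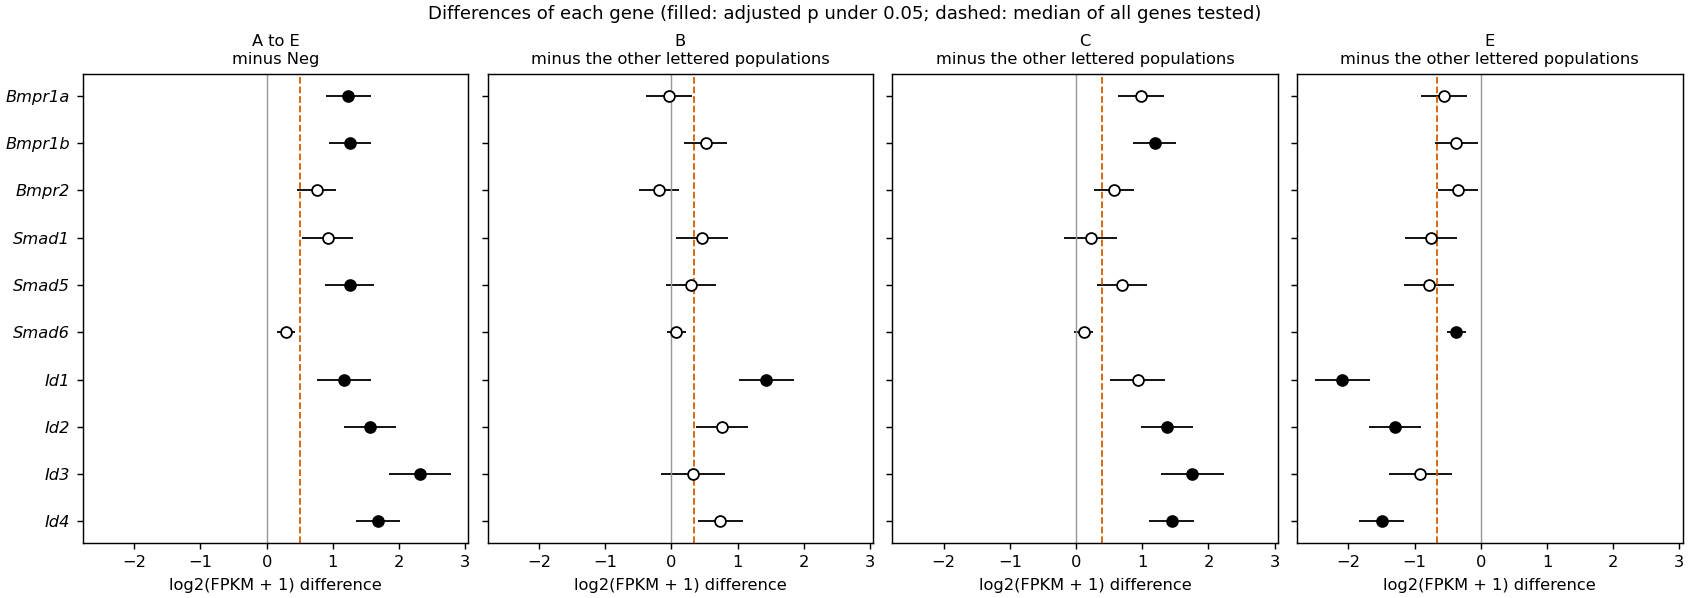
Difference of each gene in 4 comparisons, on the log2(FPKM + 1) scale, with bars of 1 standard error. Filled points passed an adjusted p of 0.05 and the dashed line marks the median of all 13578 genes tested. The Id genes lie to the right of the dashed line in the comparisons with Neg and of C, and to its left in E.

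Upstream sequences of the 3 Id genes that were called together in C are printed here because they are the stretches in which a shared BMP response element would be looked for first. Each is the 250 bases before the annotated start of the RefSeq gene in GRCm38.p6, read 5′ to 3′ on the strand of the gene. Capitals mark GGCGCC, a palindromic GC-rich sequence known to be bound by Smad1 and Smad5. The windows are chr12:25096093-25096342 on the minus strand for Id2, chr4:136143572-136143821 on the plus strand for Id3 and chr13:48260866-48261115 on the plus strand for Id4.
Id2: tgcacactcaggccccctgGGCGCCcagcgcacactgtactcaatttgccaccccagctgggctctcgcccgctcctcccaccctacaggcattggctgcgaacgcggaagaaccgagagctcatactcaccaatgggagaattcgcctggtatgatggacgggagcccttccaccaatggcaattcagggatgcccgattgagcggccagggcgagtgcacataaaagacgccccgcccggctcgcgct
Id3: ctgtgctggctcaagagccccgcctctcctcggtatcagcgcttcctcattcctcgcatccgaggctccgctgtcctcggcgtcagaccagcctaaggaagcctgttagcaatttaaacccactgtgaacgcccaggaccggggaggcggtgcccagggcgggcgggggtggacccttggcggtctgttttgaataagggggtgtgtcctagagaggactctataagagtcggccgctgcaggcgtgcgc
Id4: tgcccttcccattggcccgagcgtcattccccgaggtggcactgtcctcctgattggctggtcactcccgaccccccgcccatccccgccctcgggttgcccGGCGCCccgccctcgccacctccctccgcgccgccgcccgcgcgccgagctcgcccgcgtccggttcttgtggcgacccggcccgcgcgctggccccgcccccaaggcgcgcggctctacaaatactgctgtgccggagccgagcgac
GGCGCC occurred once upstream of Id2, 231 bases before the start, and once upstream of Id4, 148 bases before it, with no match in the Id3 window. Across both strands, GTCT, the short element bound by several Smads, occurred once for Id2, in 2 places for Id3 and not at all for Id4. Windows of the same length hold GGCGCC in 9.59% and GTCT in 82.9% of 32851 promoters. Of the 9 members with an entry, 5 had GGCGCC in at least 1 window: Id2, Id4, Bmpr1a, Bmpr2 and Smad5. This count is by gene, and Smad5 and Bmpr1b have several windows each, whereas the 9.59% is by single window. The windows of the members with GGCGCC were 62.8% to 78.8% G or C, and no background of like composition was taken. No enrichment is read from the count. The deposited transcripts of Id2 and Id3 begin where these windows end, whereas that of Id4 begins at 48261427, downstream of the annotated start at 48261116. In GENCODE vM21, Id2 reaches to 25097140 and Id3 begins at 136143497. The windows of Id2 and Id3 therefore lie within the GENCODE spans of these genes, and are upstream only of the RefSeq starts. Such matches are letters in a window and say nothing of binding in these cells.

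Among the lettered populations, C had the highest median of 8 of the 10 genes. How often C has the highest median over all genes was not counted, so no weight is put on this. Id2, Id3, Id4 and Bmpr1b were higher in C than in the mean of A, B, D and E, by 1.19 to 1.75. These 4 of 10 members stand against 7.51% of all genes called higher in C. The median difference of the members was 0.96, against 0.39 over all genes.

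Id3 in C was at 53.1 and 19.5 FPKM in the olfactory bulb, 30.1 and 22.9 FPKM in the cortex, and 29.6 and 13.1 FPKM in the brainstem. Its medians in the other populations were 15.6 FPKM in B, 9.62 in A, 6.4 in D and 5.07 in E, and 1.14 in Neg. No C library fell below 13.1 FPKM, a level above that of all 6 Neg libraries, of 5 of 6 D libraries and of 5 of 6 E libraries. That level lay within the ranges of A, at 1.32 to 20.1 FPKM, and of B, at 0.081 to 34 FPKM, and below the median of B. Id3 rose in C by 1.75 ± 0.48 (adjusted p = 0.0301).

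For Id2 the C libraries held 25.4 and 15.7 FPKM in the olfactory bulb, 29.4 and 33.9 FPKM in the cortex, and 15.8 and 15.2 FPKM in the brainstem. Medians elsewhere were 15.7 FPKM in B, 9.73 in A, 5.47 in D, 3.47 in E and 3.01 in Neg, and Id2 rose in C by 1.37 ± 0.40 (adjusted p = 0.0364). Id4 in C was at 8.69 and 13.4 FPKM in the olfactory bulb, 20.2 and 25.3 FPKM in the cortex, and 13.3 and 12 FPKM in the brainstem. Its medians were 7.1 FPKM in B, 5 in A, 3.32 in D, 2.02 in E and 1.14 in Neg, and it rose in C by 1.45 ± 0.34 (adjusted p = 0.0171). The ranges of C and of the population next below it overlapped for every member.

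Bmpr1b in C was at 5.27 and 4.11 FPKM in the olfactory bulb, 11.2 and 10.5 FPKM in the cortex, and 4.57 and 2.95 FPKM in the brainstem. Its medians were 2.85 FPKM in B, 2.08 in A, 1.72 in E, 0.425 in D and 0.265 in Neg, and it rose in C by 1.19 ± 0.33 (adjusted p = 0.0306). Bmpr1a also had its highest median in C, with 17.2 to 30.2 FPKM in C (median 25.2), but its difference of 0.98 ± 0.34 did not pass (adjusted p = 0.0689). Differences of Bmpr2, Smad1, Smad5, Smad6 and Id1 in C lay between 0.12 and 0.93 and did not pass either, with Id1 the largest (adjusted p = 0.144).

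Set directly against Neg, 8 of the members, all but Id1 and Smad1, were higher in every C library than in any Neg library, which held for 17.8% of all genes tested. In B this held for 2 members, Id2 and Id4 (11.5% of all genes), and in A, D and E for none (1.6%, 0.957% and 0.0221% of all genes). Smad6 counts among the 8 with levels of 0.037 to 0.685 FPKM in C.

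The calls in C rested on the scale and on the populations set beside it. After rescaling and after quantile normalization 0 of 10 members were called. The 4 differences kept their sign, at 0.81 to 1.63 after rescaling and 0.53 to 1.14 after quantile normalization. The calls fell over all genes too. As deposited, 1020 of all genes were higher and 1 lower in C. The split was 1 and 0 once rescaled and 6 and 0 on the quantile scale. Library titles carry numbers in 2 separate runs, and D and E have numbers of the second run only. Within the first run, where C is set against A and B, the calls were lost for the members and over all genes alike. Id3 was there at 0.79 and Id4 at 0.60. The median of the members was 0.58, against 0.08 over all genes. No member was called after leaving out olfactory bulb C replicate 1, cortex C replicate 1, cortex C replicate 2 or brainstem C replicate 1, and 2 were called without brainstem C replicate 2. Calls over all genes moved with single libraries too, so these losses are not read as a trait of the members. Astrocyte markers moved with the 4 called genes, 12 of 14 being higher in C. Their sum was 1970 to 4200 FPKM in C, against 292 to 4480 FPKM in the other lettered libraries. Markers of other cell types were higher in C too: 5 of 7 tested for fibroblasts and meninges, 3 of 5 for choroid plexus and ependyma, 4 of 7 for oligodendrocyte precursors and 4 of 11 for microglia, and 0 of 10 for endothelium. The choroid plexus sum was 36.1 to 23800 FPKM in C, against 0 to 5680 FPKM in the other lettered libraries. The part of any of these in the result was not tested.

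**Figure D3:**
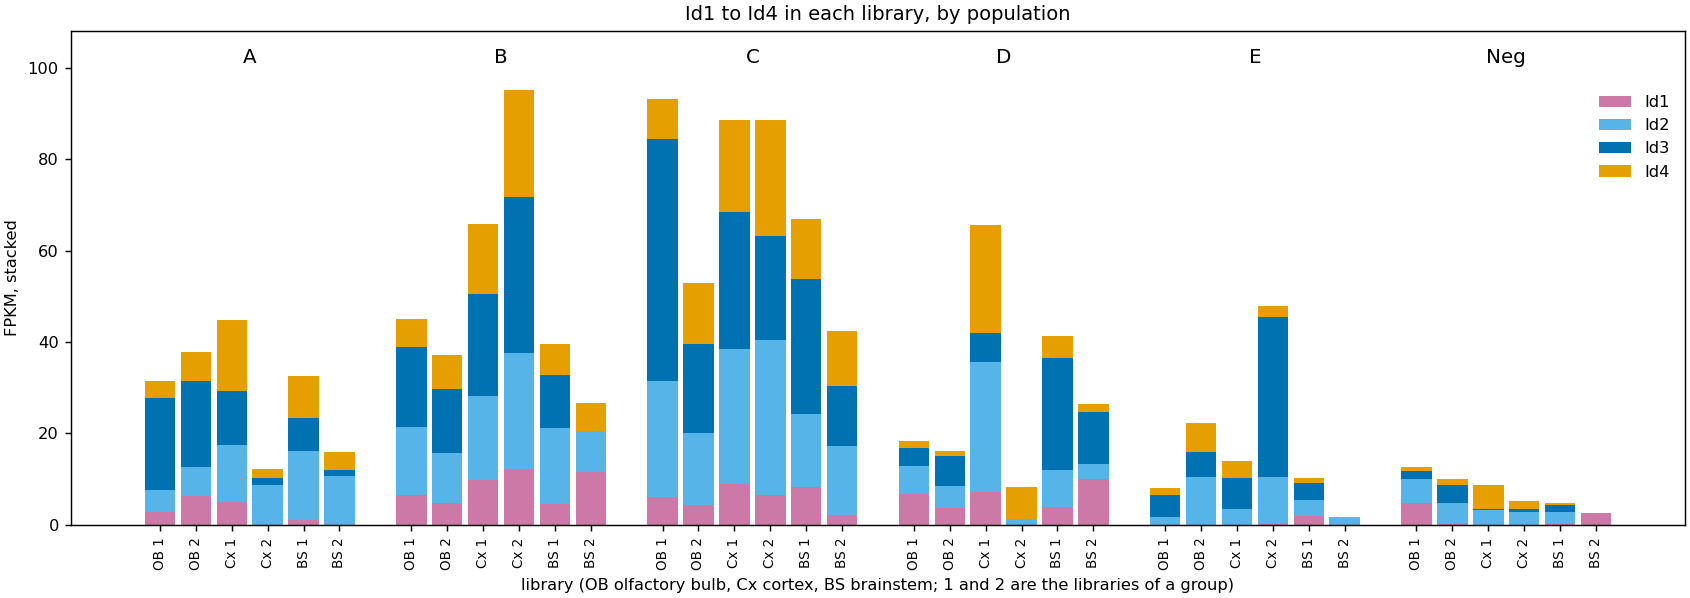
FPKM of Id1, Id2, Id3 and Id4 stacked for each library, grouped by population from A to E and then Neg. The C libraries reach 42.4 to 93.1 FPKM, all above the Neg libraries, which reach 2.62 to 12.7 FPKM, while single libraries of D and E stand far above the others of their population.

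Id1 was the 1 member called in B. It was at 6.53 and 4.8 FPKM in olfactory bulb B, 9.86 and 12.3 FPKM in cortex B, and 4.62 and 11.6 FPKM in brainstem B, with medians of 6.24 FPKM in C, 5.36 in D, 1.98 in A, 0 in E and 0.184 in Neg. Over its 6 libraries B ran from 4.62 to 12.3 FPKM, and C from 2.14 to 9.04 FPKM. Id1 rose in B by 1.43 ± 0.42 (adjusted p = 0.0184). With 15.4% of all genes called higher in B, 1 of 10 members is below the background, and the B range of Id1 overlapped that of C. The other members differed by -0.19 (Bmpr2) to 0.76 (Id2). Within the first number run Id1 was at 0.56 ± 0.42 in B (adjusted p = 0.51), and it was not called after rescaling, after quantile normalization, or without olfactory bulb B replicate 1, cortex B replicate 2 or brainstem B replicate 2. The splits of all genes in B were 2090 higher and 49 lower as deposited, 520 and 120 once rescaled, and 544 and 264 on the quantile scale. Id1 is known to be strong in vascular endothelium, and 5 of 10 endothelial markers were also higher in B, with a summed 40.1 to 172 FPKM in B, 10.4 to 40.1 FPKM in Neg and 0.565 to 89.5 FPKM in the other lettered libraries. Cldn5, the tight junction gene of brain endothelium, was at 2.45 to 17.2 FPKM in B. The part of endothelial or microglial cells in the Id1 level was not tested.

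Id3 had a single low value in B. Brainstem B replicate 2 held 0.081 FPKM, with a deposited interval of 0 to 0.243 FPKM, against 11.7 to 34 FPKM in the other 5 B libraries. Id1 in the same library, at 11.6 FPKM, was among the highest of all 36.

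E had the lowest median of Id1, and Id1 fell there more than any other member. Olfactory bulb E replicates 1 and 2, cortex E replicate 1 and brainstem E replicate 2 list Id1 at 0, cortex E replicate 2 at 0.228 FPKM, and brainstem E replicate 1, the shallowest library, at 1.89 FPKM with a deposited interval of 0 to 5.67 FPKM. In the other lettered populations Id1 is listed at 0 in 3 of 24 libraries. It differed by -2.10 ± 0.42 in E (adjusted p = 0.000601). Id4 was at 0.334 to 6.28 FPKM in E (median 2.02) and fell by 1.49 ± 0.34 (adjusted p = 0.00179), and Id2 was at 1.48 to 10.4 FPKM (median 3.47) and fell by 1.29 ± 0.40 (adjusted p = 0.0118). For both genes every E library lay below every C library, while the E ranges overlapped those of A, B and D. The same separation from C held for Id1, at most 1.89 FPKM in E and at least 2.14 FPKM in C. It also held for the barely detected Smad6. How often E lies below C in this way over all genes was not counted. Smad6 entered the test only through the 2 libraries at 1 FPKM or more, neither of them of E, and is listed at 0 in all 6 E libraries. Its adjusted p of 0.0367 in E was lost when any 1 of those 6 libraries was left out, its difference was 0.02 after quantile normalization, and it is not read as a change.

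The 4 of 10 members past the threshold in E, or 3 of 9 with Smad6 set aside, stand against 42.5% of all genes called lower, so the count is no more than the background gives. The median of the members was -0.77 and that of all genes -0.66. Id3 was not called (-0.92 ± 0.48, adjusted p = 0.114): it reached 35 FPKM in cortex E replicate 2, a library that carried olfactory bulb genes, against 0 to 6.78 FPKM in the other 5. The receptors differed by -0.55 (Bmpr1a), -0.37 (Bmpr1b) and -0.35 (Bmpr2) and were not called.

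With a term for the number runs, of which 3 groups hold both, 0 of 10 members were called in E. With that term 1 of all genes was called higher in E and 134 lower, so few calls are left for any gene. Id1 was at -1.57 ± 0.62 (limma, adjusted p = 0.19), Id2 at -0.93 ± 0.59 and Id4 at -0.70 ± 0.47. The median of the members was -0.28, against -0.34 over all genes. After rescaling, Id1 and Smad6 were past the threshold in E, with Id1 at -3.54 (adjusted p = 0.00777), and after quantile normalization no member was, with Id1 at -1.16 (adjusted p = 0.0643). Of all genes, 14 were higher and 5770 lower in E as deposited, 184 and 2818 once rescaled, and 511 and 564 on the quantile scale. With D and E libraries alone, which share the second number run, Id1 differed by -2.02 ± 0.60 in E against D (adjusted p = 0.245), Id2 by -0.43 ± 0.71 and Id4 by -0.75 ± 0.45, and 0 of 10 members and 0 of all genes were called by limma, with 1983 genes at an unadjusted p under 0.05. The endothelial sum was 0.565 to 20 FPKM in E, with Cldn5 listed at 0 in 4 of 6 libraries, and 8 of 10 endothelial markers, 13 of 14 astrocyte markers and 11 of 11 microglial markers were lower in E. Their part in the Id1 result was not tested.

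In A and in D no member was called, nor was any gene in A (0%), while 0.103% of all genes were called in D in either direction. In A the members differed by -0.70 (Id1) to 0.10 (Smad5), with 0 of 10 members and 480 genes (3.54%) at an unadjusted p under 0.05. In D 1 of 10 members and 1196 genes (8.81%) were below that value. Single D libraries stood apart from the rest. Bmpr1b was at 8.41 FPKM in cortex D replicate 1 and at 0.097 to 1.18 FPKM in the other 5 D libraries. Its difference in D was -1.06 ± 0.33 (limma, adjusted p = 0.272) and came to -1.55 once cortex D replicate 1 was left out. Cortex D then rested on replicate 2 alone, a library with 2999 genes at 1 FPKM or more and Bmpr1b at 0.251 FPKM. Cortex D replicate 1 held Id2 at 28.5 and Id4 at 23.6 FPKM, whereas cortex D replicate 2 held 1.21 and 7.01 FPKM. Smad1 was highest of all 36 libraries in brainstem D replicate 1, at 19.9 FPKM, and next highest in brainstem D replicate 2, at 10.1 FPKM, against 0.244 to 5.99 FPKM in the other D libraries.

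Between regions, over the 5 lettered populations, no member passed the test: 0 of 10 in the olfactory bulb against the cortex (3.73% of all genes called in either direction), in the olfactory bulb against the brainstem (5.19%) and in the cortex against the brainstem (1.75%). At an unadjusted p under 0.05 stood 2 of 10 members in each comparison, near the share of all genes, which was 15.3% for the olfactory bulb against the cortex, 19.2% for the olfactory bulb against the brainstem and 11.2% for the cortex against the brainstem. Bmpr1b and Id4 came nearest, both in the cortex. Bmpr1b was at 0.6 to 5.27 FPKM in the olfactory bulb (median 2.31, n = 10), against 0.251 to 11.2 FPKM in the cortex (median 6.29, n = 10), a difference of -0.92 ± 0.32 (limma, adjusted p = 0.119). The brainstem had 0.097 to 4.57 FPKM (median 1.91), and the difference of the cortex from it was 1.18 ± 0.32 (limma, adjusted p = 0.0504). The ranges of all 3 regions overlapped with the highest values in the cortex.

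Id4 was at 1.14 to 13.4 FPKM in the olfactory bulb (median 6.23), against 1.76 to 25.3 FPKM in the cortex (median 15.4), a difference of -1.0 ± 0.33 (adjusted p = 0.0985). The brainstem had 0.334 to 13.3 FPKM (median 5.42), and the difference of the cortex from it was 1.06 ± 0.33 (adjusted p = 0.123). The mean of Bmpr1b was highest in the cortex in 6 of 6 populations and that of Id4 in 5 of 6. In 4 of 6 populations both cortex libraries stood above all 4 libraries of the other regions, for each gene. This held in 2 of 6 populations for Id2 and Id3, in 1 for Smad1 and in 0 for the other members. How often it holds over all genes was not counted, so no weight is put on it for Bmpr1b and Id4. Within the first number run both genes were called lower in the olfactory bulb than in the cortex. Without the 8 libraries that hold fewer than 5000 genes, both were called in both comparisons with the cortex. After quantile normalization both were called between the olfactory bulb and the cortex, and only Bmpr1b between the cortex and the brainstem. Neither was called in either comparison after rescaling, with a pseudocount of 0.1, with no filter or with the top transcript. Between the olfactory bulb and the cortex, 6 of the 47 alternatives gained the call for Id4 and 4 for Bmpr1b. Between the cortex and the brainstem 3 gained it for Id4 and 10 for Bmpr1b. Leaving out cortex D replicate 2, a library with 2999 genes at 1 FPKM or more, also brought both genes past the threshold in both comparisons.

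The share of Bmpr1b in the sum of Bmpr1a and Bmpr1b does not depend on the scale of a library. It was 9.82% to 45.6% in the lettered cortex libraries (median 29.6%), 0.435% to 26.2% in the brainstem (median 14.1%) and 5.3% to 14.8% in the olfactory bulb (median 10.8%). In B it was 45.6% and 36.6% in the cortex, 26.2% and 12.4% in the brainstem, and 13.4% and 11.7% in the olfactory bulb. In C it was 31.4% and 27.8% in the cortex, 21.0% and 14.5% in the brainstem, and 14.8% and 13.7% in the olfactory bulb. Both cortex libraries stood above every library of the other regions in B, C and Neg, while in A, D and E 1 of the 2 did not. No background of other gene pairs was taken for this share. The brainstem D libraries had the lowest shares of the lettered populations, 1.96% and 0.435%.

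**Figure D4:**
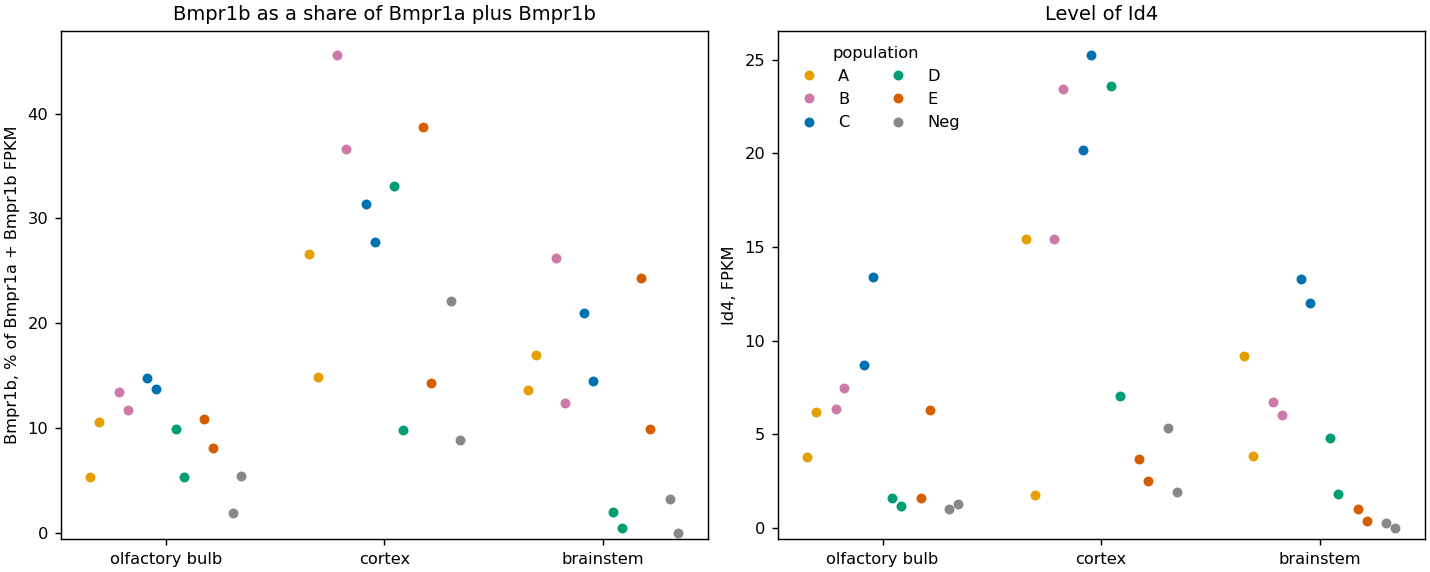
Left, Bmpr1b as a percentage of the summed FPKM of Bmpr1a and Bmpr1b, and right, the FPKM of Id4, in each of the 36 libraries by region, with colour giving the population. The cortex holds the highest values of both, up to 45.6% and 25.3 FPKM, and no olfactory bulb library passes 14.8%.

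Bmpr1a ran the other way in level, with a median of 19.1 FPKM in the olfactory bulb, 13.8 FPKM in the cortex and 12.9 FPKM in the brainstem, and its differences did not pass (adjusted p of 0.341 or more). Id3 was at a median of 15.6 FPKM in the olfactory bulb and 9.27 FPKM in the brainstem, a difference of 0.99 ± 0.47 (limma, adjusted p = 0.238). That difference was near 0 in the D and E libraries alone, at -0.05. Smad5 was at a median of 7.1 FPKM in the olfactory bulb and 4.68 FPKM in the brainstem, a difference of 0.81 ± 0.37 (limma, adjusted p = 0.219). Id1 had medians of 4.6 FPKM in the olfactory bulb, 5.73 FPKM in the cortex and 3.03 FPKM in the brainstem, with fitted differences of 0.14 (olfactory bulb minus cortex), 0.13 (olfactory bulb minus brainstem) and -0.01 (cortex minus brainstem), none of which passed. Whether population differences depended on the region was asked with an F test over 10 terms: no member passed (lowest adjusted p = 0.659, for Id3), against 0.0147% of all genes, and 2 of 10 members, Id3 and the barely detected Smad6, stood at an unadjusted p under 0.05, against 7.03% of all genes.

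The 4 Id genes did not keep fixed proportions. Id3 led in 4 of 6 B, 4 of 6 C and 4 of 6 E libraries, and Id2 in 3 of 6 A and 4 of 6 Neg libraries. Id1 made up 11.7% to 43.6% of the Id sum in B (median 13.7%), 0% to 18.5% in E (median 0%) and 5.04% to 12.5% in C (median 7.8%). Id4 made up 5.16% to 85.3% in the cortex (median 25.6%), against 7.05% to 28.3% in the olfactory bulb (median 15.2%) and 6.86% to 28.3% in the brainstem (median 19.1%).

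Across the 36 libraries, which share differences in scale and depth, the members most alike were Id4 and Bmpr1b (Pearson r = 0.853), then Id2 and Id4 (r = 0.827), Bmpr1a and Smad5 (r = 0.81) and Id2 and Bmpr1b (r = 0.807). Id1 was less like the other Id genes, with r of 0.544 to Id3, 0.541 to Id2 and 0.503 to Id4. Over all genes, the nearest to Id2 were Hepacam, an adhesion gene of glia, Glud1, glutamate dehydrogenase, and Farsb (r of 0.904, 0.903 and 0.889). Nearest to Id4 were Rorb, a nuclear receptor, AI464131 and Gabrg1, a GABA-A receptor subunit (0.904, 0.9 and 0.899), and Rorb was also among the nearest to Bmpr1b (0.869), behind Sfrp1, a secreted Wnt modulator, and Ezr, ezrin (0.882 and 0.874). Id3 was nearest to Clptm1, the bHLH repressor Hes1 and Tcf7l2 (0.857, 0.85 and 0.85). For Id1 they were Aars, Lrp10 and Kdelr1 (0.85, 0.846 and 0.844), for Bmpr1a Cntn1, Fads1 and Selenop (0.895, 0.888 and 0.887), and for Bmpr2 Pank3, Ptprz1 and Pafah1b1 (0.871, 0.82 and 0.819). Smad5 lay nearest to Hsd17b4, Cyp2j9 and Ncan (0.861, 0.853 and 0.851), Smad1 to Irf3, Copz1 and Cry2 (0.81, 0.797 and 0.79), and Smad6 to 1810055G02Rik, Vat1 and Art3 (0.715, 0.71 and 0.706). These coefficients are descriptions over libraries that differ in scale.

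Several transcripts were listed for some members. Bmpr1b transcripts begin at 3 sites, 142169228, 141982264 and 141931588 on chromosome 3, and the first held a median of 100% of the gene's FPKM in the olfactory bulb and in the brainstem and 84.9% in the cortex, but single libraries ran from 0% to 100%. Smad5 has a short form of 1419 bases that ends at 56733206 on chromosome 13, whose share was 0% to 74.3% in the olfactory bulb (median 0%), 0% to 67.1% in the cortex (median 23.7%) and 0% to 100% in the brainstem (median 0%). Shares so uneven between libraries of a group were not compared further. Id1, Id2, Id3, Id4 and Smad6 are each represented by 1 transcript.

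The rest of the pathway was described from lists of genes by role, each given by the count that passed the test in each direction. Over the 7 lists together, 15 of 45 genes tested were higher in A to E than in Neg (33.3%, against 20.2% of all genes), 8 of 45 in B (17.8%, against 15.4%) and 8 of 45 in C (17.8%, against 7.51%), and 18 of 45 were lower in E (40.0%, against 42.5%), which is near the background in B and in E. In A to E against Neg, 2 of 6 BMP ligands were higher, among them Bmp6 by 1.71 ± 0.45 (adjusted p = 0.0101), and 3 of 8 extracellular antagonists and modulators, among them Fstl1 by 1.46 ± 0.32 (adjusted p = 0.00293). Of 8 other receptors and co-receptors 3 were higher, with Rgma, a membrane-anchored BMP co-receptor, at 2.40 ± 0.50 (adjusted p = 0.00222). None of 8 other transducers and inhibitors was called. Of 5 other target genes 1 was higher, Hey1, a transcriptional repressor, by 1.47 ± 0.42 (adjusted p = 0.0162). Among the partners of Id proteins, 2 of 3 E proteins were higher, with Tcf3 at 1.06 ± 0.36 (adjusted p = 0.0345), and 4 of 7 bHLH factors of neural lineages, with Olig2, a factor of oligodendrocyte lineage cells that some astrocytes also express, at 1.89 ± 0.34 (adjusted p = 0.000514). Genes called lower were absent from all 7 lists. Rgma, Bmp6 and Olig2 each lost the call under at most 2 of the 46 alternatives, Fstl1 under 2, Hey1 under 6 and Tcf3 under 12. Of 7 oligodendrocyte precursor markers, 2 of which are Olig1 and Olig2, 4 were also higher in A to E, with a summed 3.92 to 220 FPKM against 3.24 to 53 FPKM in Neg, and their part in the Olig2 difference was not tested.

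In B 3 of 8 other transducers and inhibitors were higher. Smad7, an inhibitory Smad induced by the pathway, was at 4.22 to 106.6 FPKM in B and rose by 2.30 ± 0.43 (adjusted p = 0.000419). Its B value of 106.6 FPKM was in brainstem B replicate 2, and the call was lost when the transcript with the highest mean stood for each gene. Eng, the endothelial co-receptor endoglin, rose by 1.61 ± 0.35 (adjusted p = 0.00193) as 1 of 2 receptors called of 8. Fstl1 rose by 1.04 ± 0.32 (adjusted p = 0.0279) as the 1 antagonist called of 8, and the Notch effector Hes5 by 1.21 ± 0.39 (adjusted p = 0.0309) as 1 of 2 bHLH factors called of 7. Eng lost its call under 4 of the 46 alternatives (both other scales, the top transcript and the first number run alone), Fstl1 under 9 and Hes5 under 10. No ligand, other target or E protein was called in B.

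In C the genes called were Chrdl1, a secreted BMP antagonist, at 1.06 ± 0.30 (adjusted p = 0.0359; 2 of 8 antagonists), Rgma at 1.81 ± 0.51 (adjusted p = 0.0334; 1 of 8 receptors) and Smad9, which BMP receptors also activate, at 1.16 ± 0.30 (adjusted p = 0.0264; 1 of 8). Hey1 was at 1.74 ± 0.43 (adjusted p = 0.0185; 1 of 5 targets) and Olig1 at 1.60 ± 0.45 (adjusted p = 0.0338; 3 of 7 bHLH factors), and no ligand or E protein was called. None of these 5 was called on either of the other scales. In E, all called genes were lower: 1 of 6 ligands (Gdf10, -1.36 ± 0.35), 2 of 8 antagonists (Sostdc1, -2.20 ± 0.70), 4 of 8 receptors (Rgma, -2.40 ± 0.51), 4 of 8 transducers and inhibitors (Ski, -1.61 ± 0.38), 3 of 5 targets (Hey1, -2.02 ± 0.43), 1 of 3 E proteins (Tcf3, -1.42 ± 0.36) and 3 of 7 bHLH factors (Olig2, -2.91 ± 0.34). Their adjusted p-values ran from 5.06e-06 for Olig2 to 0.0145 for Sostdc1. Olig2 was called lower in E on all 3 scales, at 0 to 2.01 FPKM in E against 2.54 to 31.2 FPKM in the other lettered libraries, but not with D and E alone. Gdf10, Sostdc1, Rgma, Ski, Hey1 and Tcf3 all lost the call in E after quantile normalization, with the number-run term and with D and E alone, and Rgma, Ski, Hey1 and Tcf3 also after rescaling. All 7 oligodendrocyte precursor markers, Olig1 and Olig2 among them, were lower in E, with a summed 3.92 to 54.9 FPKM in E against 19.3 to 220 FPKM in the other lettered libraries, and in C 4 of the 7 were higher, at a summed 92.5 to 183 FPKM. Their part in the Olig1 and Olig2 differences was not tested.

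Between regions, where no member passed the test, several genes of other roles did. Chrdl1 was higher by 2.68 ± 0.30 in the olfactory bulb than in the brainstem (adjusted p = 2.79e-06) and by 2.46 ± 0.30 in the cortex than in the brainstem (adjusted p = 6.83e-06), and it kept the call under all alternatives but the D and E libraries alone. Gdf10, a BMP-family ligand, was lower by 2.02 ± 0.34 in the olfactory bulb than in the brainstem (adjusted p = 0.000481), and by 1.47 ± 0.34 in the cortex than in the brainstem (adjusted p = 0.0187), a call that 7 of the 47 alternatives lost, rescaling, the smaller pseudocount and no filter among them. Bmp7 was higher in the olfactory bulb than in the brainstem by 1.57 ± 0.37 (adjusted p = 0.00927), Bmp5 higher than in the cortex by 1.38 ± 0.32 (adjusted p = 0.00983), and the type I receptor Acvr1 higher than in the cortex by 1.08 ± 0.27 (adjusted p = 0.0177). Acvr1 lost the call under 6 of the 47 alternatives, and Bmp7 after rescaling and with D and E alone. Dlx5, a homeobox target that olfactory bulb interneurons express, was higher in the olfactory bulb than in the cortex by 2.13 ± 0.32 (adjusted p = 8.86e-05) and than in the brainstem by 1.90 ± 0.32 (adjusted p = 0.000462). Among the 47 alternatives, Bmp5 and Dlx5 lost these calls only with D and E alone. Markers of immature neurons were higher in the olfactory bulb in 6 of 8 against the cortex and in 5 of 8 against the brainstem, and their part in the Dlx5 difference was not tested. The splits of all genes in the olfactory bulb were 418 higher and 88 lower than in the cortex as deposited, and 296 and 178 after quantile normalization, and 569 and 136, and 377 and 275, than in the brainstem.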

How the data were processed

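RNA from 36 libraries was prepared with the NucleoSpin RNA kit and amplified with NuGEN Ovation RNA-Seq V2, a kit that primes with random and poly-dT primers and does not mark the strand, then sequenced on an Illumina HiSeq, per the labels' protocols. Per the submitters' processing notes, bcl2fastq 1.8.3, TopHat and Cufflinks were used on mm10. The versions of TopHat and Cufflinks are not given here. The authors deposited, for each library, FPKM values and their intervals for 63241 transcripts, per the file headers, along with the estimated coverage of each transcript. Coverage over FPKM gave the relative depth of a library, and the deposited interval near 10 FPKM had a half-width of 10.1% to 16.5% in 34 libraries, 35.2% in olfactory bulb E replicate 1 and 63.0% in brainstem E replicate 1. Intervals cover counting error only.

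A transcript was given to the GENCODE vM21 gene whose span it overlapped best (bedtools 2.31.1, score of at least 0.5, lead of 0.1 over the next gene): 52537 (83.1%) were assigned to 25460 genes, and FPKM was summed per gene. Genes entered the test if 2 or more libraries reached 1 FPKM, which left 13578 genes and all 10 members. limma 3.58.1 in R 4.3.3 was fitted to log2(FPKM + 1), estimating 1 mean per group (18 groups of 2 libraries, 18 residual degrees of freedom), a mean-variance trend and two-sided tests, with Benjamini-Hochberg adjustment over all genes tested and a threshold of 0.05. Lettered populations and regions were weighted equally. The procedure was tested on simulated data. Replicates were numbered in accession order, and no pair of libraries held identical values.

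All members were tested in each comparison, and each that passed is named. From each pathway list the called gene with the largest difference in each direction is named, and for each member the 3 genes of highest correlation. Members and lists were chosen with earlier results of these data known. Alternatives were rescaling to a sum of 1000000, quantile normalization, a pseudocount of 0.1, no filter, the top transcript in place of the sum, a term for the 2 runs of numbers in the titles, libraries of the first run only, and leaving out the 2 shallowest libraries, the 2 that carried olfactory genes, the 8 under 5000 genes, or each library in turn.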

Additional observations from a re-analysis of the deposited data

Results flagged for a closer look

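For each of the 10 genes and 6 populations, the 6 libraries were searched, on the log2(FPKM + 1) scale, for a highest or lowest library far from the rest by Dixon's criterion. Of these 60 sets 9 held one, where chance gives about 1 in 20, and each set spans 3 regions, so a regional difference can also set a library apart. Cortex D replicate 2, with 2999 genes at 1 FPKM or more, was the lowest D library for Id1, listed at 0, for Bmpr1a at 2.3 FPKM and for Smad5 at 0.206 FPKM. Cortex D replicate 1 was the highest D library for Bmpr1b, at 8.41 FPKM. Brainstem B replicate 2 was the lowest B library for Id3 at 0.081 FPKM and for Smad1 at 1.28 FPKM. Brainstem E replicate 1, the shallowest library, was the highest in E for Id1, at 1.89 FPKM. Among Neg libraries, brainstem Neg replicate 2 was lowest for Id2, listed at 0, and cortex Neg replicate 1 was highest for Bmpr1b, at 2.92 FPKM.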

How the results depend on the processing

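No paired analysis was possible because the labels give no replicate numbers. Numbers of members called are given under each alternative that moved them by over 1.5 times. The number of all genes called also moved between alternatives, in every comparison. As deposited, after rescaling, after quantile normalization and with the top transcript, 2746, 332, 396 and 1431 genes were higher against Neg. In the same order, 2090, 520, 544 and 1470 were higher in B, and 1020, 1, 6 and 798 in C. Lower in E were 5770, 2818, 564 and 4078. A change in the members' count is therefore not read as a trait of the members. The counts that follow are of members. Against Neg, 7 became 2 after rescaling, 3 after quantile normalization, and 4 with the top transcript or without the libraries under 5000 genes. The 1 in B became 0 under rescaling, quantile normalization, the number-run term, the first number run alone and without the libraries under 5000 genes. The 4 in C became 0 under those 5 and with a pseudocount of 0.1, and 2 with no filter. The 4 in E became 2 after rescaling, without the 2 shallowest libraries or without those under 5000 genes, and 0 under quantile normalization, the number-run term, or D and E alone, an alternative chosen after seeing the data. For the olfactory bulb against the cortex, 0 became 2 under quantile normalization, in the first number run alone or without the libraries under 5000 genes, and 1 with the number-run term. For the cortex against the brainstem, 0 became 1 under quantile normalization and 2 without those under 5000 genes.

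Leaving out 1 library gave 3 to 9 members against Neg, 0 to 2 in B, 0 to 6 in C, 0 to 2 in D, 2 to 5 in E, 0 to 2 for the olfactory bulb against the cortex and for the cortex against the brainstem, and 0 to 0 in A, between olfactory bulb and brainstem and for the interaction. In E, 2 members were called without olfactory bulb E replicate 1 or cortex E replicate 1. In B, 2 were called without cortex D replicate 1.

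Signs turned for Bmpr2 against Neg (-0.36 rescaled, -0.31 quantile), Id4 in B (-0.22, first number run alone), Smad5 in E (0.29 rescaled, 0.14 quantile), Smad6 in E (0.02, quantile) and Id3 in the olfactory bulb against the brainstem (-0.049, D and E alone). The cause of these changes was not tested. The number-run term is estimated from the 3 groups that hold both runs, and depth limits the E libraries most.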
